A study of Mus musculus with 6 samples.

Results

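The cytosolic ribosomal protein genes were examined in tumor-associated macrophages (TAMs). They were chosen by symbol, as protein-coding genes named Rpl or Rps with a number and optional letters, together with Rpsa, Rplp0, Rplp1 and Rplp2. Pseudogenes and the Rps6k kinases were left out. Of 82 genes with such a symbol, 80 had 10 or more counts in at least 3 libraries, out of 55421 genes in the count table. The other two, Rpl10l and Rpl3l, had fewer. The 80 genes comprise 48 of the large and 32 of the small subunit. All 80 passed the expression filter of the test and were kept whatever their change.

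The TAMs came from tumors of mice that had received cells of the fibrosarcoma line MC17-51 (M17 in the labels) 15 days earlier. They were sorted as live cells positive for CD45, CD11b and F4/80 and negative for Ly6G, a surface protein of neutrophils. Control mice were Pdcd1f/f, in which the gene for the inhibitory receptor PD-1 is flanked by loxP sites and no Cre is present. In Pdcd1f/fLysMcre mice, Cre from the lysozyme locus acts in myeloid cells, macrophages, monocytes and neutrophils alike, and both groups carried the floxed allele and a tumor. Mice were 8 to 12 weeks old, and each genotype had 3 libraries. Nothing in the labels ties a library to 1 mouse, so p-values measure only the spread between these libraries.

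The ribosome is built from ribosomal RNA and about as many proteins as there are genes here, each present in a single copy except for the paired proteins of the stalk. Ribosomal protein mRNAs are among the most abundant of any cell. Most start with a C followed by an uninterrupted run of C and T bases, through which growth signals set their translation, so the level of these mRNAs and the making of the protein can part. RNA-seq measures the mRNA, not ribosomes or translation.

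Total counts ranged from 41833823 to 51417209 per library, at which 3 counts equal 0.0583 to 0.0717 CPM, a limit for counting error only. The normalized counts of Pdcd1 overlapped between Pdcd1f/f libraries (9.27, 13.4 and 16.4) and Pdcd1f/fLysMcre libraries (6.48, 15.2 and 10.8), so the deletion could not be read from its counts. Lyz2, which carries the Cre insertion, had 207974 to 225226 against 405 to 465, so the labels matched the Cre allele. The defining macrophage markers were abundant, with a summed level of 343967 to 402634 normalized counts in Pdcd1f/f and 284846 to 305330 in Pdcd1f/fLysMcre libraries. Of these 10 markers, 6 were lower past the threshold, beside 3.01% of all genes, and 0 higher, beside 2.42%. Markers of other cells had lower counts. The 12 T and NK cell markers summed to 674 to 759 and 606 to 727 normalized counts, mostly Cd4, with Cd8a at 0 in 4 libraries. The 6 B cell markers summed to 350 to 394 and 301 to 356, with Pax5 at 0 in every library. The 9 neutrophil markers summed to 6520 to 6690 and 5425 to 5558, with Ly6g, the gene for the protein that the sort selected against, near 0, and the 12 tumor and stromal markers to 26771 to 29454 and 27830 to 33512, mostly Fn1. Past the threshold, 2 neutrophil markers (Csf3r and Mmp8) and 2 tumor or stromal markers (Col1a2 and Pecam1) were lower, beside 3.01% of all genes. None of any of these 4 lists was higher, beside 2.42%. Offsets for GC content and exonic length, the union of a gene's annotated exons, changed the counts. Lower past the threshold were then 8 macrophage, 3 neutrophil, 2 tumor or stromal and 1 B cell marker, beside 7.98% of all genes. Only Fn1 was then higher (log2 fold change 0.29, edgeR adjusted p = 0.000457), beside 10.8%. Every library held both Y-linked transcripts (1545 to 1914 against 6267 to 7233 normalized counts) and Xist (17318 to 26511 against 8530 to 13137). Both separated the genotypes, so the mix of sexes and genotype cannot be told apart. The paper states that males and females were used in equal numbers. The share of counts from the mitochondrial genome was 1.05% to 1.45% and 1.15% to 1.27%. Whether any of these moved the ribosomal protein genes was not tested. In bulk samples, fewer cells of a type and less RNA per cell cannot be told apart.

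Of the 80 ribosomal protein genes, 2, Rps14 and Rps21, fell past the threshold in TAMs of Pdcd1f/fLysMcre mice and the other 78 did not pass it. The median log2 fold change of the 80 genes was −0.11, a level 0.926 times that of Pdcd1f/f TAMs, beside −0.0026 over all 14469 genes tested. Below 0 lay 66 of the 80 log2 fold changes, beside 50.4% of all genes, and above 0 the other 14. With the GC and length offsets, 60 of the 80 lay below 0. In edgeR's two-sided quasi-likelihood test with Benjamini-Hochberg adjustment over all genes, 2 ribosomal protein genes were lower at an adjusted p under 0.05, beside a background of 3.01%, and 0 were higher, beside 2.42%. At an unadjusted p under 0.05, edgeR gave 29 genes lower, beside 11.9% of all genes, and 0 higher, beside 12.3%. DESeq2 gave 10 lower, beside 5.63% of all genes, and 0 higher, beside 4.93%, and limma 2 lower, beside 2.59%, and 0 higher, beside 1.98%.

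The changes were small and close to one another. The standard deviation of the log2 fold change over the 80 genes was 0.14 and the median standard error (SE) of a single gene 0.077, and 76 of the 80 lay within 0.3 of 0. The quartiles were −0.20 and −0.03. In 27 genes, whose log2 fold changes ran from −0.34 to −0.09, every Pdcd1f/fLysMcre library lay below every Pdcd1f/f library, beside 13.1% of all genes tested, and in 1 gene, Rpl4, above, beside 14.1%. A further 7 genes had an adjusted p between 0.05 and 0.1, among them Rpl26, Rps3 and Rpl37, beside 6.38% of all genes. The count of genes past the threshold turned on single libraries. Without Pdcd1f/f replicate 1 it was 26 lower and 2 higher, and the share of all genes past the threshold rose as well, to 11.5% lower and 10% higher. Without Pdcd1f/fLysMcre replicate 3 it was 1 lower, beside 2.12%, and 0 higher, beside 1.45%. Without any one of the other 4 libraries edgeR called 0 members in either direction. Lower calls then made up 0.958% and 1.45% of all genes without Pdcd1f/f replicate 2 or 3 and 0.943% and 1.5% without Pdcd1f/fLysMcre replicate 1 or 2, and higher calls 0.553%, 0.928%, 0.563% and 1% in the same order.

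**Figure D1:**
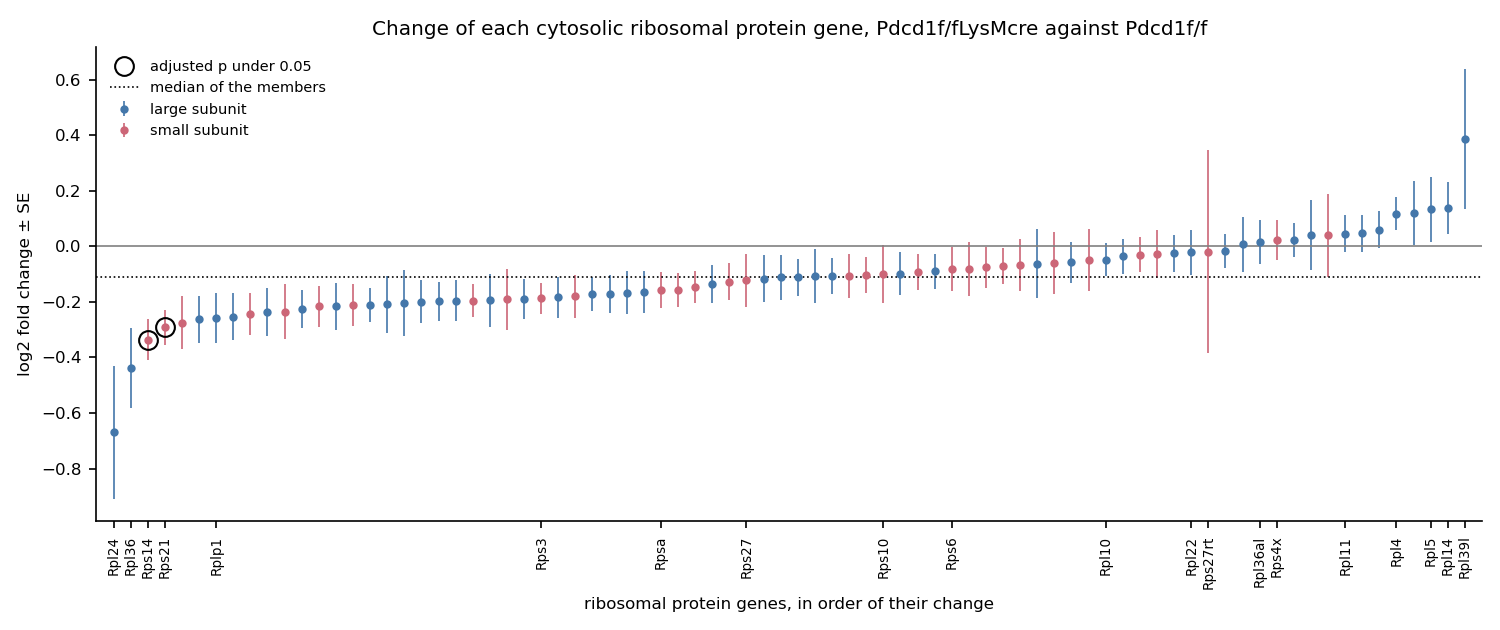
Log2 fold change of each of the 80 ribosomal protein genes (vertical axis, points with SE), Pdcd1f/fLysMcre against Pdcd1f/f, ordered by change along the horizontal axis and coloured by subunit, with the names of some genes. Most points lie between 0 and −0.3, with the dotted median at −0.11, and the 2 circled genes, Rps14 and Rps21, are those past the threshold.

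Rps14, a protein of the small subunit's platform, had 18573, 20439 and 20970 normalized counts in Pdcd1f/f replicates 1 to 3. In Pdcd1f/fLysMcre replicates 1 to 3 it had 16030, 14704 and 16741. The lowest control library lay above the highest Pdcd1f/fLysMcre library. The gene (ENSMUSG00000024608) lies on chromosome 18 of GRCm38 from 60747098 to 60778546 on the plus strand. Its log2 fold change was −0.34 (SE 0.07, edgeR adjusted p = 0.0259), a level 0.793 times that of the controls, and it stayed between −0.39 and −0.28 when each library was left out in turn, past the threshold in 2 of those 6 fits, those without Pdcd1f/f replicate 1 and without Pdcd1f/fLysMcre replicate 3. Over the alternative analyses its adjusted p ranged from 0.000164 to 0.156. Ndst1 overlaps Rps14 on the other strand, and the setting for strand in the counting is not given in the sources used here.

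Rps21, a protein of the small subunit, had 13242, 14181 and 13010 normalized counts in the control libraries and 11358, 10889 and 10746 in the Pdcd1f/fLysMcre libraries. These groups did not overlap either, and the libraries of each group were close together. The gene (ENSMUSG00000039001) lies on chromosome 2 from 180257377 to 180258445 on the plus strand. Its log2 fold change was −0.29 (SE 0.06, edgeR adjusted p = 0.0237), between −0.32 and −0.25 with each library left out, and it was past the threshold in 1 of these 6 fits, the one without Pdcd1f/f replicate 1. Its adjusted p over the alternative analyses ranged from 0.000150 to 0.163.

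**Figure D2:**
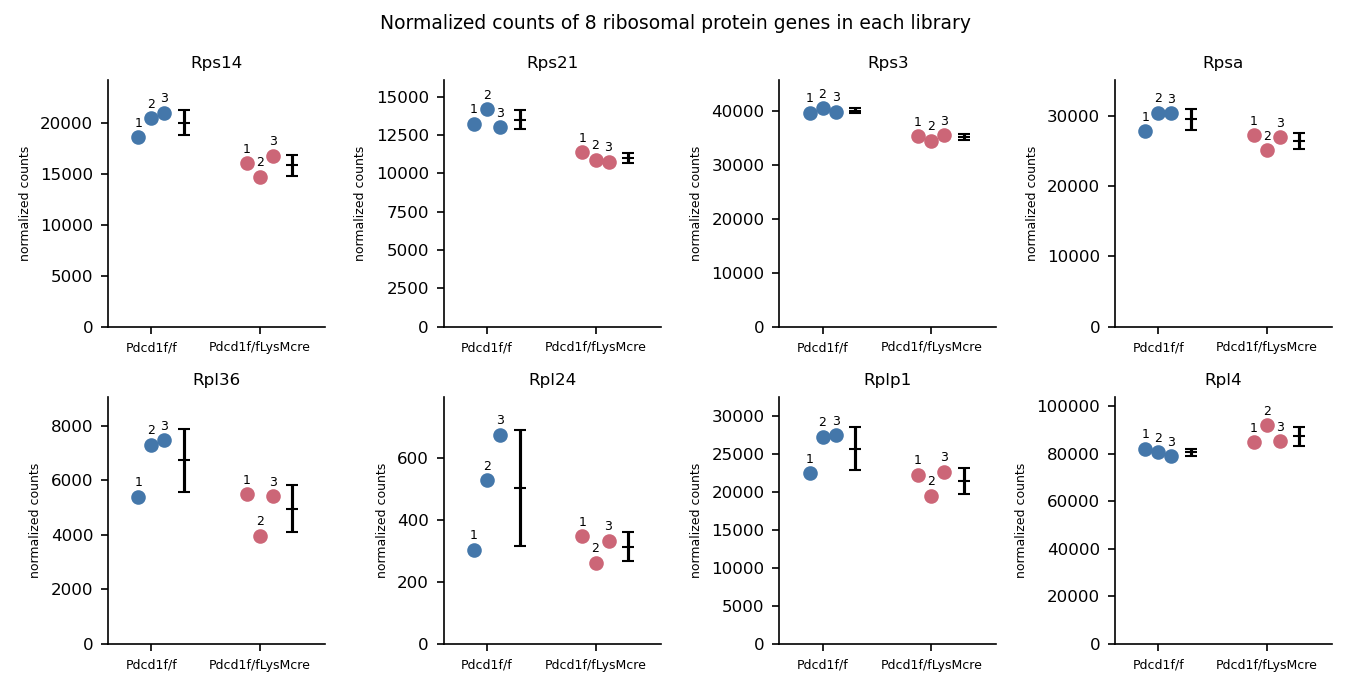
Normalized counts (vertical axis from 0) of 8 ribosomal protein genes in the 3 Pdcd1f/f and 3 Pdcd1f/fLysMcre libraries. Points are libraries marked with their replicate number, and black bars are means with SD. Rps14, Rps21, Rps3, Rpsa and Rpl4 do not overlap between the genotypes, whereas Pdcd1f/f replicate 1 lies among the Pdcd1f/fLysMcre libraries for Rpl36, Rpl24 and Rplp1.

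The largest negative changes by size were not past the threshold. Rpl24, whose protein forms a bridge between the subunits, had 304, 528 and 676 normalized counts in control TAMs and 348, 262 and 333 in the others. Pdcd1f/f replicate 1 lay below 2 of the Pdcd1f/fLysMcre libraries, so the groups overlapped. Its log2 fold change was −0.67 (SE 0.24, edgeR adjusted p = 0.126, range 5.75e-06 to 0.400 over the alternative analyses). Rpl36, a protein of the large subunit, had 5405, 7313 and 7478 normalized counts in Pdcd1f/f and 5492, 3975 and 5418 in Pdcd1f/fLysMcre libraries, again with Pdcd1f/f replicate 1 at the level of the other genotype. Its log2 fold change was −0.44 (SE 0.14, edgeR adjusted p = 0.0982, range 1.82e-06 to 0.331). Both genes were past the threshold in DESeq2 (adjusted p = 0.0318 and 0.0253) and, without that library, in edgeR, with log2 fold changes of −0.94 for Rpl24 and −0.58 for Rpl36. The change of Rpl24 was smaller, −0.40, without Pdcd1f/f replicate 3. That of Rpl36 was −0.30 without Pdcd1f/fLysMcre replicate 2, and neither was then past the threshold in edgeR.

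Rps3, a small-subunit protein at the mRNA entry that also takes part in DNA repair, had 39751, 40613 and 39905 normalized counts in the controls and 35421, 34544 and 35525 in Pdcd1f/fLysMcre libraries. Its libraries varied little, with a coefficient of variation of 1.15% and 1.53%, against a median over the 80 genes of 6.81% in Pdcd1f/f and 6.25% in Pdcd1f/fLysMcre libraries. The log2 fold change of Rps3 was −0.19 (SE 0.06, edgeR adjusted p = 0.0761). Its groups did not overlap, and it was not past the threshold.

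In the other direction, no gene was past the threshold in edgeR with all 6 libraries and without GC and length offsets. The largest value was that of Rpl39l, a paralog best known from testis, with 81.6, 51.4 and 49.3 normalized counts in the controls and 61.1, 86.7 and 92.4 in the others, a log2 fold change of 0.39 (SE 0.25, edgeR adjusted p = 0.377). The groups overlapped, at a level where counting error is large. Rpl14, a large-subunit protein, had 27932, 23438 and 21495 against 26060, 28627 and 25399 normalized counts (log2 fold change 0.14, SE 0.09, edgeR adjusted p = 0.395). Without Pdcd1f/f replicate 1, Rpl14 and Rpl36a were the 2 genes higher past the threshold, with log2 fold changes of 0.24 and 0.26. Without Pdcd1f/f replicate 3 their log2 fold changes were 0.056 and 0.0041. Rpl4, part of the wall of the tunnel through which the growing protein leaves, had 82077, 80558 and 78965 normalized counts in the controls and 84686, 91890 and 85191 in Pdcd1f/fLysMcre libraries. Every Pdcd1f/fLysMcre library was higher, by a log2 fold change of 0.12 (SE 0.06, edgeR adjusted p = 0.256).

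The subunits were set side by side. Of the 32 small-subunit genes, 30 had a log2 fold change below 0, with a median of −0.11, and of the 48 large-subunit genes 36 had, also with a median of −0.11. With offsets for GC content and exonic length in each library, the medians were −0.10 for the small and −0.04 for the large subunit. The difference between the subunits was not tested. Summed over all members, the ribosomal protein genes took 3.15% and 3.16% of the counts in Pdcd1f/f replicates 1 and 2, 3.002% in replicate 3, and 2.91%, 2.80% and 2.90% in Pdcd1f/fLysMcre replicates 1 to 3. By genotype these shares were 3.11% ± 0.09 and 2.87% ± 0.06 (SD, n = 3 each), and every control library lay above every Pdcd1f/fLysMcre library. The difference of the mean log2 shares was −0.11. With 3 libraries against 3, an exact permutation test cannot give a p under 0.1. Large-subunit genes took 1.81%, 1.83% and 1.75% against 1.70%, 1.65% and 1.71%, and small-subunit genes 1.34%, 1.33% and 1.26% against 1.21%, 1.15% and 1.19%. The ratio of large-subunit to small-subunit counts was 1.35, 1.37 and 1.39 in the controls and 1.41, 1.44 and 1.44 in the others, also without overlap. These sums weigh abundant genes most, among them Rpl4, the large-subunit gene higher in every Pdcd1f/fLysMcre library. They were not corrected for GC content, and the part of Rpl4 in the ratio was not tested.

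**Figure D3:**
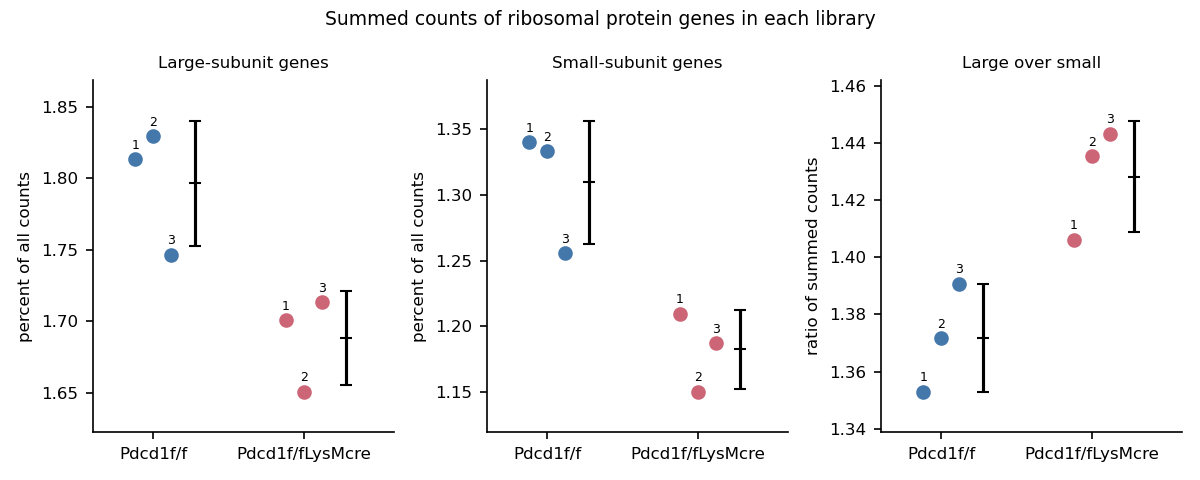
Share of all counts taken by the 48 large-subunit genes and the 32 small-subunit genes, in percent, and the ratio of both, for each library. Points are libraries marked with their replicate number, bars are means with SD, and the vertical axes do not start at 0. Both shares are lower, and the ratio higher, in all 3 Pdcd1f/fLysMcre libraries, without overlap.

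The stalk proteins Rplp0, Rplp1 and Rplp2 recruit the elongation factors, and none of the 3 genes was past the threshold. Rplp0 had 47627, 53094 and 53680 against 46726, 42050 and 46955 normalized counts (log2 fold change −0.18, SE 0.07, edgeR adjusted p = 0.153). Rplp1 had 22492, 27282 and 27458 against 22299, 19498 and 22671 (log2 fold change −0.26, SE 0.09, edgeR adjusted p = 0.120), and Rplp2 had 15170, 18056 and 18403 against 14957, 13315 and 15499 (log2 fold change −0.24, SE 0.09, edgeR adjusted p = 0.138). Pdcd1f/f replicate 1 was the lowest control in all 3 genes, and Pdcd1f/fLysMcre replicate 2 the lowest library. Without Pdcd1f/f replicate 1 all 3 genes were past the threshold in edgeR, with log2 fold changes of −0.25, −0.36 and −0.33.

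Rpl5 and Rpl11, which bind a small ribosomal RNA together and can hold back the p53 inhibitor Mdm2 when assembly fails, had log2 fold changes of 0.13 (SE 0.12, edgeR adjusted p = 0.512) and 0.05 (SE 0.07, edgeR adjusted p = 0.702). Rpl5 had 18718, 15866 and 13342 against 16913, 19574 and 16020 normalized counts, and its groups overlapped. With each library left out in turn, the log2 fold change of Rpl5 ranged from 0.017 to 0.25. Rps6, the substrate of the S6 kinases, had 16892, 14909 and 13935 against 14596, 15032 and 13507 (log2 fold change −0.08, edgeR adjusted p = 0.559). Rpsa, which also serves as a laminin receptor, had 27815, 30430 and 30380 normalized counts against 27226, 25100 and 26985, without overlap (log2 fold change −0.16, SE 0.07, edgeR adjusted p = 0.171), and was past the threshold without Pdcd1f/f replicate 1 (−0.21). Rpl22, known for its role in lymphocyte development, and Rpl10, which joins the large subunit late, had log2 fold changes of −0.02 and −0.05 (edgeR adjusted p = 0.894 and 0.657). Of the 4 X-linked genes, Rpl10, Rpl36a, Rpl39 and Rps4x, none was past the threshold, 1 had a log2 fold change below 0 and the median was 0.03, beside 65 of 76 below 0 and a median of −0.12 for the autosomal ones.

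Levels were compared between genes as mean normalized counts per kilobase of the annotated transcript. The median of the 80 genes was 17710, with quartiles of 10743 and 29508. The highest levels per kilobase were those of Rpl4 (54548), Rpl32 (53606), Rplp1 (47328), Rps27 (44079) and Rps9 (41142), and the lowest those of Rpl39l (87.5), Rps27rt (130), Rpl24 (604), Rps10 (1027) and Rpl36al (1370). Rpl24 and Rps10 encode core proteins, yet had levels per kilobase far below the first quartile. Rps10 and Rpl36al, with Rpl13a and Rpl13, are the 4 members that share sequence on the same strand with another annotated protein-coding gene, and 3 of these 4 are among the 6 lowest. Another 16 overlap a gene on the opposite strand. How reads of overlapping genes or of near-identical copies were treated is not given in the sources used here, so low counts of single genes are uncertain. The 307 pseudogenes with an Rpl or Rps symbol held 0.00973% to 0.0114% of the counts. Copies under other symbols were not counted.

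The paralogs were compared with their closest member. Rps27 had 18461, 15148 and 13977 against 15158, 14857 and 13641 normalized counts (log2 fold change −0.12), and Rps27l, a p53 target, had 5231, 4512 and 4236 against 4512, 4791 and 3897 (log2 fold change −0.08). Rps27rt, a retrotransposed copy, had 26.5 to 72.4 in all 6 libraries. For Rpl36al the change was 0.02 and for Rpl36a 0.12, and for Rpl39 it was 0.04. None of these was past the threshold (adjusted p from 0.464 to 0.979 in edgeR). Rpl10l had 0 counts in every Pdcd1f/f library and 11, 1 and 1 in Pdcd1f/fLysMcre replicates 1 to 3, too few for the filter of the main test. It was not past the threshold in any alternative. Rpl3l had 1.90 to 6.88 normalized counts. Rpl22l1 and Rpl7l1, whose symbols fall outside the rule, had log2 fold changes of −0.09 and 0.06, beside −0.02 for Rpl22 and 0.02 for Rpl7.

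Other ribosomal proteins fall outside the symbol rule. Fau, whose product is cut into a small-subunit protein and a ubiquitin-like part, had 11372, 14570 and 15763 normalized counts in the controls and 11160, 9547 and 11464 in Pdcd1f/fLysMcre libraries (log2 fold change −0.37, SE 0.12, edgeR adjusted p = 0.0844). Its call changed with the analysis: Fau was lower past the threshold in DESeq2 (adjusted p = 0.0244), with GC and length offsets (log2 fold change −0.22, edgeR adjusted p = 0.0117), with the replicate block, with any gene of at least 1 count and without Pdcd1f/f replicate 1 (log2 fold change −0.51). Rack1, a scaffold on the small subunit, had a log2 fold change of −0.14 (edgeR adjusted p = 0.316) and was past the threshold without Pdcd1f/f replicate 1 (−0.22). Rps3a1, a core small-subunit protein, had 36784, 30327 and 26661 against 33061, 36102 and 31203 normalized counts (log2 fold change 0.10, edgeR adjusted p = 0.601).

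The libraries differed in how the genes followed base composition. Each gene was set, library by library, against its own average over all 6 on the log2 scale. Over the 80 genes, which share the libraries and are not independent, the Spearman correlation of these differences with the GC content of the transcript was −0.31, 0.47 and 0.47 in Pdcd1f/f replicates 1 to 3 and −0.20, −0.57 and 0.13 in Pdcd1f/fLysMcre replicates 1 to 3. Over 8426 genes above 10 CPM it was −0.55, 0.66 and 0.76, and −0.41, −0.75 and 0.27. Pdcd1f/fLysMcre replicate 2 was the lowest library for 40 of the 80 genes, Pdcd1f/f replicate 3 for 23 and each other library for 14 or fewer. The log2 fold change of the members had a correlation of −0.48 with GC content. The 40 members with a GC content of 51.6% or more had a median of −0.19, with 37 below 0, and the other 40 a median of −0.06, with 29 below 0.

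**Figure D4:**
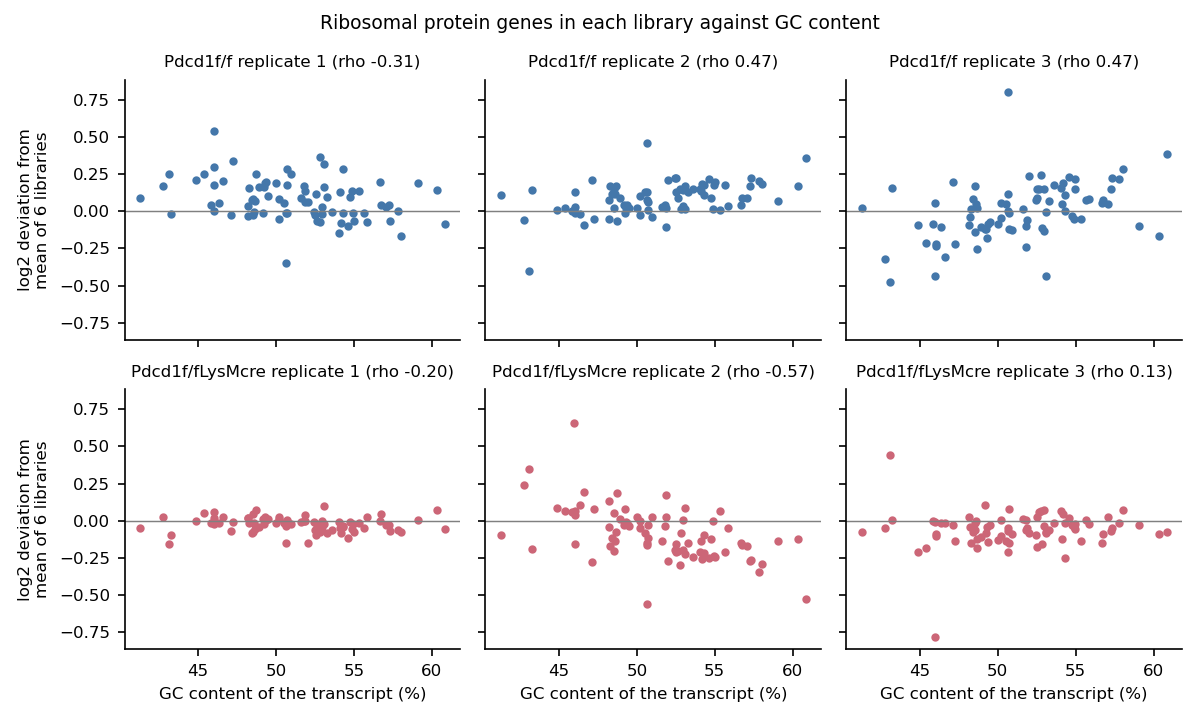
Deviation of each ribosomal protein gene from its mean over the 6 libraries (vertical axis, log2) against the GC content of its transcript (horizontal axis, percent), with 1 panel per library and the Spearman rho in the panel title. The points fall with GC content in Pdcd1f/fLysMcre replicate 2 (rho −0.57) and rise with it in Pdcd1f/f replicates 2 and 3 (rho 0.47 each).

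With offsets per library for GC content and exonic length, the correlation of the members' log2 fold change with GC content was −0.02. Their median was −0.08, with 0.015 over all genes. In that fit 12 members were lower past the threshold in edgeR, beside 7.98% of all genes, and 1, Rpl4, was higher, beside 10.8%. Over all genes, 57.6% of the calls were then higher, against 44.5% without the offsets. The 12 included Rps14, Rps21, Rps3, Rpl37, Rpl35a, Rpl36, Rplp1 and Rpl32. Rps14 had a log2 fold change of −0.27 (edgeR adjusted p = 0.000484), Rps21 of −0.25 (adjusted p = 0.000249) and Rps3 of −0.21 (adjusted p = 0.00126). That of Rpl4 was 0.13 (edgeR adjusted p = 0.0242). Rps10, with one of the highest GC contents at 60.3%, went from −0.10 to 0.05 and was past the threshold in neither fit. Without Pdcd1f/f replicate 1 the offsets gave 24 lower, beside 10.4% of all genes, and 5 higher, beside 11.8%. Without Pdcd1f/fLysMcre replicate 2 they gave 8 lower, beside 6.08%, and 0 higher, beside 7.33%.

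**Figure D5:**
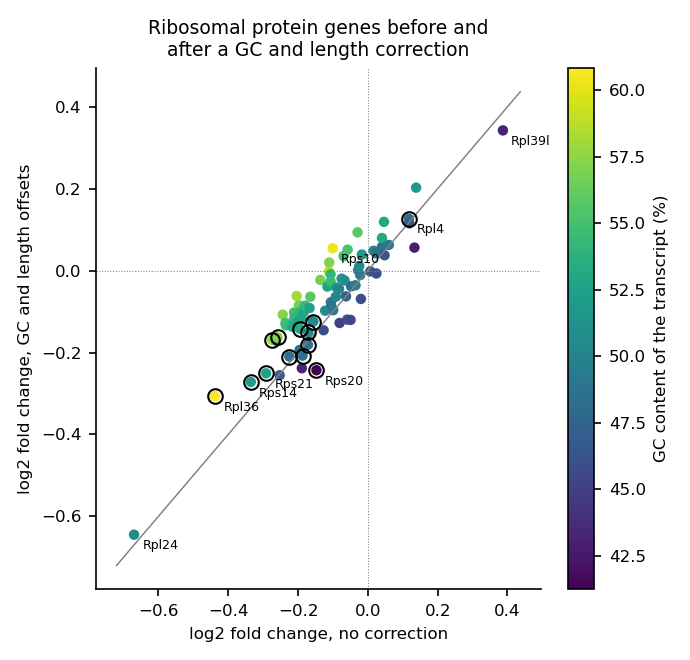
Log2 fold change of the 80 ribosomal protein genes without correction (horizontal axis) and with GC and length offsets (vertical axis), coloured by GC content in percent, with the line of equality. Circled genes are the 12 lower and 1 higher past the threshold with the offsets, and genes of high GC content lie above the line.

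The sequence at the start site was read for 60 of the 80 members that matched a RefSeq promoter window of GRCm38.p6, which runs from 250 bases before to 50 after the annotated start. Shown from 40 bases before to 20 bases from the start on, 5′ to 3′, are Rps21, which fell past the threshold, Rpl24, with the largest negative change, Rpl4, the gene higher in every library, and Rpl14, with the largest positive change of an abundant member. Capitals mark the longest run of C and T that reaches within 5 bases of the start, or the first of several of that length, as in Rpl24. The windows are chr2:180257339-180257398 on the plus strand for Rps21, chr16:55966235-55966294 on the plus strand for Rpl24, chr9:64173347-64173406 on the plus strand for Rpl4 and chr9:120571477-120571536 on the plus strand for Rpl14.
Rps21: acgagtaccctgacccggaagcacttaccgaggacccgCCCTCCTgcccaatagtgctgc
Rpl24: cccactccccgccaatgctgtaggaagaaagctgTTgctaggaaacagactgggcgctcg
Rpl4: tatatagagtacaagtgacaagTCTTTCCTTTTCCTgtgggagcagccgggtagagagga
Rpl14: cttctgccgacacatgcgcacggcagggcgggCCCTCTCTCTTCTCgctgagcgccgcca

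The runs are 14 bases in Rpl4 and Rpl14, 7 in Rps21 and 2 in Rpl24. A run of 8 or more was found in 21 of the 60 windows (35%), against 9.28% of 16522 windows, 1 per protein-coding gene. The annotated start sets this count, and in 47 of the 60 it lay within 100 bases of the GENCODE start. Members with such a run had a median log2 fold change of −0.12, with 19 of 21 below 0, and the 39 without one a median of −0.11, with 30 below 0. The letters CCGGAAG were present on either strand in 40% of the members' windows and 12.4% of all, GGGCGG in 58.3% and 48.5%, TATAAA in 8.33% and 12.9%, and ATGGCGGC in 6.67% and 3.33%. The 24 members with CCGGAAG, the letters bound by ETS-family factors, had a median log2 fold change of −0.11, and the 36 without them −0.12. These matches are descriptions of letters, not of sites in use.

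Genes that make or use ribosomes are set beside the members. Among 77 factors of ribosomal RNA synthesis and subunit assembly, 4 rose past the threshold in edgeR, beside 2.42% of all genes, and 0 fell, beside 3.01%. Of the 77, 67 had a log2 fold change above 0, beside 49.6% of all genes, and the median was 0.15. At an unadjusted p under 0.05, 31 were higher, beside 12.3%, and 0 lower, beside 11.9%. Ncl, the nucleolar protein nucleolin, had 77010, 65499 and 64119 normalized counts in the controls and 83274, 100203 and 83565 in Pdcd1f/fLysMcre libraries (log2 fold change 0.37, SE 0.09, edgeR adjusted p = 0.0451). Wdr43 rose by 0.31 (adjusted p = 0.0391) and Tsr1 by 0.27 (adjusted p = 0.0343), both factors of small-subunit processing, and Ddx21, a nucleolar helicase, by 0.25 (adjusted p = 0.0484, all from edgeR). With GC and length offsets the median of this list was 0.15, with 39 higher, beside 10.8% of all genes, and 0 lower, beside 7.98%, past the threshold. The lists share no gene with the members, and the difference between both medians was not tested.

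Of 31 initiation factors, 1 was past the threshold, Eif3c, a subunit of the complex that joins the small subunit to mRNA, with a log2 fold change of 0.26 (SE 0.06, edgeR adjusted p = 0.0287), and the median was 0.10. At an unadjusted p under 0.05, 10 of the 31 were higher and 0 lower in edgeR, beside 12.3% and 11.9% of all genes, and with GC and length offsets 13 were higher and 1 lower past the threshold, beside 10.8% and 7.98%. Of 12 elongation factors and other mRNAs known for a start with C and T, 1 was past it, Vim, a filament protein rather than a translation factor (log2 fold change 0.29, edgeR adjusted p = 0.0170), and the median was 0.07. Here 4 of the 12 were higher and 0 lower at an unadjusted p under 0.05, and likewise 4 and 0 past the threshold with the offsets. Among 79 genes of the mitochondrial ribosome, which makes the proteins of the mitochondrial genome, 2 rose, Mrps22 by 0.35 and Mrps2 by 0.28 (edgeR adjusted p = 0.0410 and 0.0427), a share close to the 2.42% of all genes, 0 fell, and the median was −0.05. At an unadjusted p under 0.05, 7 of them were higher and 8 lower in edgeR, beside 12.3% and 11.9% of all genes, and with the offsets 7 were higher and 3 lower past the threshold. None of 9 noncoding hosts of small nucleolar RNAs was past the threshold, and at an unadjusted p under 0.05, as past the threshold with the offsets, edgeR gave 0 in either direction. Of 26 regulators of ribosomal protein synthesis, Znhit6, an assembly factor of nucleolar RNPs, and Mxd1, a partner of Max, rose by 0.34 and 0.28 (adjusted p = 0.0353 and 0.0380), and Rps6ka1, a kinase downstream of ERK, fell by 0.46 on the log2 scale (adjusted p = 0.0259, all from edgeR). The shares of all genes past the threshold were 2.42% higher and 3.01% lower. Of these 26 genes, 9 were higher and 2 lower at an unadjusted p under 0.05, and 10 higher and 1 lower past the threshold with the offsets. Myc had a log2 fold change of 0.05 (adjusted p = 0.720) and Mtor of −0.10 (adjusted p = 0.489, both from edgeR). Of 14 proliferation genes, none was past the threshold in edgeR without the offsets, 1 was higher and 0 lower at an unadjusted p under 0.05, and the median was 0.01. With the offsets 1 of them, Ccna2, a cyclin, was higher past the threshold (edgeR adjusted p = 0.0144) and 0 were lower.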

How the data were processed

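TAM RNA from 3 Pdcd1f/f and 3 Pdcd1f/fLysMcre samples was sequenced from stranded polyA libraries as paired-end reads. The authors trimmed adapters with Cutadapt 2.5, aligned reads to GRCm38 with STAR 2.7.3a, and deposited raw counts per Ensembl gene from featureCounts (Subread 1.6.2). The deposited normalized signal table equals these counts divided by 1 DESeq2 size factor per library (0.895 to 1.08), and values printed as normalized counts are on that scale.

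Counts were tested with edgeR 4.0.16 (R 4.3.3): filterByExpr (minimum count 10, total 15), TMM, robust glmQLFit and two-sided glmQLFTest, with Benjamini-Hochberg adjustment over 14469 genes and a threshold of 0.05. Standard errors (SE) were the absolute log2 fold change over the root of F. Symbols, lengths and GC content came from GENCODE M21 and promoter windows from RefSeq. The functions were tested on simulated data. Alternatives were RLE or no scaling factors, TMM without the members, other filters, DESeq2 1.42.0, limma 3.58.1 on log2(value + 1), GC and length offsets (loess span 0.5), the replicate number as a block and each library left out.

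The members and gene lists were chosen with earlier results of these data known. Named genes were members past the threshold, the 3 largest changes each way, the 5 highest and lowest levels, members with a known separate role, paralogs, ribosomal proteins outside the symbol rule, and the 3 largest changes past the threshold of each other list. Other genes, such as Rps3, Rpl26, Rpl37, Myc, Mtor, Ddx21 and Ccna2, and those named among the 12 called with the offsets, were chosen after their values were seen. Some single results are not reported here.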

Additional observations from a re-analysis of the deposited data

How the results depend on the processing

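The median log2 fold change of the members stayed below 0 in every alternative, between −0.15 and −0.08 in the planned ones, with −0.12 without the paralogs. Chosen after the data were seen, the offsets without Pdcd1f/f replicate 1 brought it to −0.045, with 46 of the 80 members below 0. The number of members below 0 was 60 with offsets, 58 with offsets and the replicate block, and 57 to 71 with 1 library left out. The log2 difference of the summed share stayed between −0.14 and −0.10. The counts of calls depended on the setting. Members lower numbered 16 with any gene of at least 1 count, 10 in DESeq2, 12 with GC and length offsets, 17 with offsets and the replicate block, and 0 to 26 with 1 library left out (26 without Pdcd1f/f replicate 1). After the data were seen, they numbered 24 with offsets without Pdcd1f/f replicate 1, 8 with offsets without Pdcd1f/fLysMcre replicate 2, and 32 without both libraries. Members higher numbered 1 with offsets, 1 with offsets and block, 0 to 2 with 1 library left out, 5 with offsets without Pdcd1f/f replicate 1, and 2 without both libraries. Among all genes, 786 calls became 1951, 1528, 2719 and 2900 in the first 4 settings, 222 to 3181 with 1 library left out (most without Pdcd1f/f replicate 1), and 3285, 1982 and 3757 in the 3 added ones. By direction, 1067 of 26637 genes were lower and 884 higher with any gene of at least 1 count. With offsets and the replicate block, 1253 of 14469 were lower and 1647 higher. Without both libraries, 1956 of 14354 were lower and 1801 higher. The cause of these differences between settings was not tested. The 2 genes lower in edgeR, Rps14 and Rps21, were among the members lower in each of the settings that kept all 6 libraries.

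In the deviations of libraries from their genotype's mean, the replicate numbers showed no regular pairing. Same-numbered libraries correlated at −0.057, −0.31 and 0.56, and 1 of 3 correlated best with its own number. Libraries also differed in how genes followed GC content, so these values cannot tell whether same-numbered samples were handled together. The fit with the replicate block gave 3 members lower and 1027 genes in all.

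Of 627 values of 33 named genes under the alternatives, 31 had the other sign, none of a gene past the threshold. With offsets alone these were Rps10 (0.055) and Rpl7 (−0.0070), with offsets and the replicate block Rps10 (0.067) and Rpl7 (−0.0069), and with library size alone Rpl36al (−0.0013). With each library left out in turn, the sign changed within the ranges of Rpl36al (−0.014 to 0.048), Rps27rt (−0.43 to 0.27), Rpl11 (−0.0067 to 0.073), Rpl22 (−0.084 to 0.050), Rpl39 (−0.067 to 0.18), Rps27l (−0.15 to 0.00089), Rpl22l1 (−0.20 to 0.12), Rpl7 (−0.012 to 0.046), Rps3a1 (−0.0042 to 0.22) and Rps4x (−0.038 to 0.063). With offsets without Pdcd1f/f replicate 1, they were Rps27 (0.024), Rps10 (0.20), Rps27rt (0.16), Rps6 (0.025), Rpl22 (0.060) and Rpl7 (−0.016), with offsets without Pdcd1f/fLysMcre replicate 2 Rps10 (0.024) and Rpl39 (−0.0096), and without both libraries Rpl36al (−0.0048), Rpl22 (0.010) and Rpl22l1 (0.0086). Depth limits the genes under 100 normalized counts, Rpl39l and Rps27rt, whose standard errors were 0.25 and 0.37.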
